A study of Mus musculus with 90 samples.

Results

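Aminoacyl-tRNA synthetases are the enzymes that join each amino acid to its own transfer RNA. The set described here holds 39 of the 24422 genes in the counted annotation. It was chosen as a named list and matched by symbol: 20 genes for cytosolic enzymes or their subunits, 16 genes for mitochondrial enzymes, and 3 genes (Aimp1, Aimp2 and Eef1e1) for the scaffold proteins of the multi-synthetase complex. All 39 symbols were found and all 39 passed the filter on low counts. No measured value was a criterion of the choice, but earlier results of these data were known when it was made.

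Charged tRNAs are what the ribosome decodes, so every cell that makes protein needs a synthetase for each amino acid in its cytosol and a second set in its mitochondria. Most mitochondrial enzymes come from genes of their own, marked by a 2 at the end of the symbol, whereas Gars and Kars each encode both forms. In mammals several cytosolic enzymes (Eprs, Iars, Lars, Mars, Qars, Rars, Kars and Dars) are held together with the scaffold proteins in the multi-synthetase complex. Mouse oocytes arrest at metaphase II (MII) with a store of maternal RNA, much of which is degraded by the 2-cell (2c) stage as the embryo's own genome is activated, and transcription from the embryonic genome dominates by the 8-cell (8c) stage.

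RNA was sequenced from individual oocytes (MII) and embryos (2c and 8c) as tags of transcript 5′ ends carrying molecular identifiers, and ERCC spike-in RNA was added to every library. Plag1 knockout (KO) or wildtype (WT) CD-1 females, sexually mature and young, were superovulated with 5 IU pregnant mare serum and 5 IU hCG. MII oocytes came from unmated females and were picked 21 to 23 h after hCG without culture, and embryos from matings with WT studs were grown in KSOM and picked 45 to 47 h (2c) or 71 to 73 h (8c) after fertilization. The matPlag1KO embryos therefore have a KO mother and a WT father, whereas matPlag1KO oocytes come from KO females, and the whole-body KO is not limited to the oocyte. The libraries were made in 2 pools, called plates A and B, each of which held every stage and genotype.

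Of 90 libraries, 12 had a median CPM (counts scaled to equal library totals) under 1 and were left out, which kept 16 WT and 14 matPlag1KO oocytes, 11 and 11 2c embryos, and 15 and 11 8c embryos. The median number of gene counts in a kept library was 395023 for WT and 649899 for matPlag1KO at MII. It was 148473 and 163626 at 2c, against 564009 and 393914 at 8c. Gene counts per spike-in count, a measure of RNA per library, had medians of 42.6, 64.4, 15.5, 18.3, 50.8 and 38.2 in the same order. Plag1, the targeted gene, had 326 counts in 16 of 16 WT oocytes and 4 counts in 3 of 14 matPlag1KO oocytes. At 2c it had 1 count in 1 of 11 WT embryos and 91 counts in 9 of 11 matPlag1KO embryos. The father of these embryos is WT, so a Plag1 allele that can give counts is present and the counts do not go against the label. At 8c it had 10 counts in 5 of 15 WT and 6 in 4 of 11 matPlag1KO embryos. The labels do not name the donor female of each embryo, so the p-values measure the spread between these single oocytes and embryos.

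At the median, oocyte and 2c markers set their stages apart in both genotypes, and 8c markers did so only in WT. The summed CPM of 9 oocyte markers at MII had a median of 9102 (WT) against 24701 (matPlag1KO), calculated on gene totals. It was 4127 against 6785 for 2c embryos and 66.5 against 120 for 8c embryos. The 8 markers of the 2c stage had summed medians of 248 CPM in WT and 765 CPM in matPlag1KO 2c embryos. Of these markers Tcstv1 and Tcstv3 were at 0 in every group. The 8 markers of the 8c stage had 1397 CPM in WT and 568 CPM in matPlag1KO 8c embryos. The same markers had 423 and 534 CPM at 2c and 731 and 588 CPM at MII, so they did not single out matPlag1KO 8c embryos. Cumulus cells, which surround the oocyte, were removed with hyaluronidase. The summed level of 12 cumulus markers at MII ran from 12.4 to 518 CPM in WT and from 131 to 652 CPM in matPlag1KO, with Amh, Foxl2, Ptgs2, Ptx3 and Tnfaip6 at 0 in both groups.

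Promoter windows from RefSeq (build GRCm38.p6, 250 bases before to 50 after an annotated start) were matched for 30 of the 39 genes. The motif TTGCATCA (reverse complement TGATGCAA) is the amino acid response element bound by ATF4, the transcription factor that raises several synthetase genes when amino acids are short. It was found on either strand in 4 of the 30 genes (13.3%) and in 279 of 27025 genes with a window (1.03%). The 4 windows are shown 5′ to 3′ on the strand of the gene, with the motif in capitals, since these 4 genes took different courses between the stages.
Aars, chr8:111033592-111033891, plus strand: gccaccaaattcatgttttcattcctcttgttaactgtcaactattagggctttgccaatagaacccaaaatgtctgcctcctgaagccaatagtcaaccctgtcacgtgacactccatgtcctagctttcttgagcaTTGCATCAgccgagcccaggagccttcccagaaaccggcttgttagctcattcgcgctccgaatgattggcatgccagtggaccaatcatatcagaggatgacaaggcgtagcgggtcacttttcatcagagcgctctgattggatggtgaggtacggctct
Iars, chr13:49681880-49682179, plus strand: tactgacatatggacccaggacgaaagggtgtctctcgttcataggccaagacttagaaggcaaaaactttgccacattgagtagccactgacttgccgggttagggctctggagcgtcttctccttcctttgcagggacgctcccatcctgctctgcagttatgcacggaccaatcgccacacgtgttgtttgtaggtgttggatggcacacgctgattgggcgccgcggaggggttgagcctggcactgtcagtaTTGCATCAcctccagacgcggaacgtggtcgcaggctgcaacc
Tars, chr15:11399609-11399908, minus strand: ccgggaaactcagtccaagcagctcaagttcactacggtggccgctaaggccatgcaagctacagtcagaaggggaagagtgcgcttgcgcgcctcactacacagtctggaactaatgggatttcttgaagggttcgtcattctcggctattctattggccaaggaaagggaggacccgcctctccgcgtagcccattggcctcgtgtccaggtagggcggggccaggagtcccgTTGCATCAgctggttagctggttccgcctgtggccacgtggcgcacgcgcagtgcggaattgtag
Yars, chr4:129189653-129189952, plus strand: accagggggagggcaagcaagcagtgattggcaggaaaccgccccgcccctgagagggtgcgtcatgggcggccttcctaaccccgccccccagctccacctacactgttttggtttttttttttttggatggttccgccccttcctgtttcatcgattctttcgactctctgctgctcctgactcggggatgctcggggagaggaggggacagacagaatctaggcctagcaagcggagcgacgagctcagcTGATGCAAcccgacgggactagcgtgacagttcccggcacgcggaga

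The motif began 112 bases before the start site in Aars, 15 bases before it in Tars, and just after it in Iars (position 7) and Yars (position 3). A second search, added after the values were seen, used letters of the PLAG1 consensus. Its pattern was the core, GAGGC or GGGGC, then 6 to 8 bases of any kind, then GGG. Both strands were searched, with overlapping matches allowed. The published consensus also has the letter K (G or T), which was not used here, so the shares are those of the pattern. The pattern was met by 6 of the 30 genes (20%: Dars, Ears2, Fars2, Iars2, Lars2 and Sars2) and by 6682 of 27025 genes (24.7%). The windows of Fars2 and Ears2 are shown with the matching bases in capitals, because Fars2 differed between the genotypes and Ears2 rose at 2c, as described below. A match is a run of letters and does not show binding.
Fars2, chr13:36117393-36117692, plus strand: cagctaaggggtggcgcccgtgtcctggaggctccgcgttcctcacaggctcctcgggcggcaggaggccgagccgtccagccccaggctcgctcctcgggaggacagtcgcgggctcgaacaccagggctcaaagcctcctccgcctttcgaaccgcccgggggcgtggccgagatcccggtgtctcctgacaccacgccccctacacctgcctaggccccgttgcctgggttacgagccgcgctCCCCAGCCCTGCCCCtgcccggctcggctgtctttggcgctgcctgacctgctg
Ears2, chr7:122067037-122067336, minus strand: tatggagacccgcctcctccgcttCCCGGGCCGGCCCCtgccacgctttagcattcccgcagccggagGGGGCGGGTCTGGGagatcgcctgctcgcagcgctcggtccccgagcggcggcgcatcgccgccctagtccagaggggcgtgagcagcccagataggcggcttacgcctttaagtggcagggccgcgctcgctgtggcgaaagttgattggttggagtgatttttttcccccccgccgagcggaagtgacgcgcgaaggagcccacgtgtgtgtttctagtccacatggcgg

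From MII to 2c in WT, most synthetase genes fell and then rose again by 8c. Between stages each library was scaled to its spike-in RNA, so that a change in total RNA is kept. On this scale 26 of the 39 genes fell from MII to 2c and 6 rose (edgeR quasi-likelihood test, Benjamini-Hochberg adjusted p under 0.05), where 51.3% of all 16511 genes tested fell and 14.1% rose. The median log2 fold change was -1.77 for the 39 genes (-1.63 with genes at 0 counts set at their bound) and -1.46 for all genes, and 25 of the 39 lay below the median of all genes. With TMM scaling on gene counts, which removes the loss of total RNA, the median of all genes was -0.03, that of the set was -0.34, and 12 of the 39 fell and 7 rose. Over all genes TMM scaling moved the calls from 2326 higher and 8474 lower to 4540 higher and 3814 lower. Each library is a single oocyte or embryo, so these levels are per oocyte or embryo and not per cell.

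**Figure D1:**
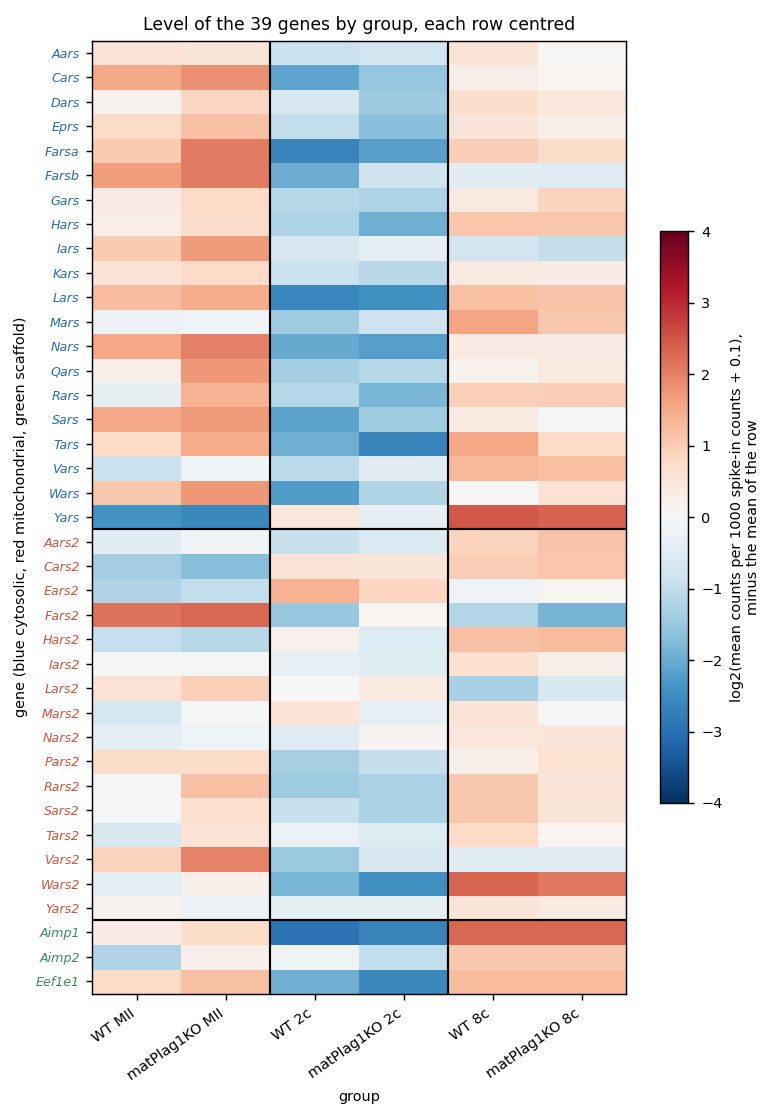
Mean level of each of the 39 genes (rows, blue cytosolic, red mitochondrial, green scaffold) in the 6 groups (columns), as log2 of the mean counts per 1000 spike-in counts plus 0.1, with the mean of the gene's 6 values subtracted. Most cytosolic genes are blue (low) at 2c in both genotypes, while Yars and Ears2 are higher at 2c than at MII and Fars2 is highest at MII.

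Cytosolic enzymes made up most of the genes that fell. From MII to 2c, 17 of 20 fell in WT, only Yars rose, and Rars and Vars did not pass the test. Among all genes 51.3% fell and 14.1% rose in this step on the spike-in scale. With TMM scaling 3814 of 16511 fell and 4540 rose. The median log2 fold change of the 20 cytosolic genes was -1.78 on the spike-in scale and -0.48 with TMM scaling, under which 8 fell and 1 rose. Of the 16 mitochondrial genes 7 fell and 4 rose, with a median of -1.03 (-0.66 with bounds) on the spike-in scale that turned to 0.27 with TMM scaling. Of the 3 scaffold genes Aimp1 and Eef1e1 fell and Aimp2 rose.

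**Figure D2:**
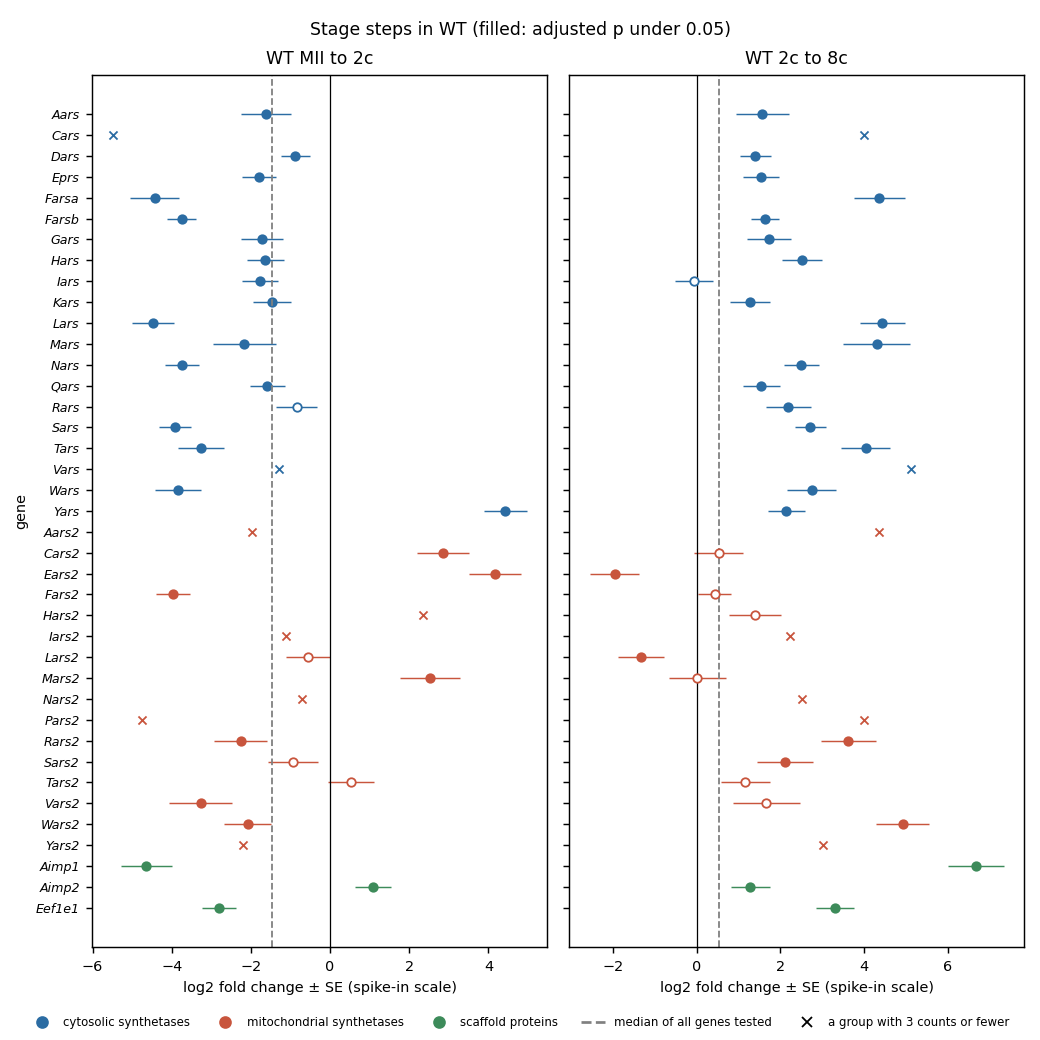
Log2 fold change ± SE of each gene from MII to 2c (left) and from 2c to 8c (right) in WT on the spike-in scale. Filled points passed an adjusted p of 0.05, crosses mark genes with 3 counts or fewer in a group, and the dashed line is the median of all genes tested (-1.46 and 0.53). Most points lie left of 0 in the first panel and right of 0 in the second.

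Yars, the cytosolic tyrosyl-tRNA synthetase, was nearly absent from oocytes. It had 4 counts in 3 of 16 WT oocytes. Its level ran from 0 to 0.173 (median 0) counts per 1000 spike-in counts in WT oocytes, and the lowest, median and highest were 0, 0.692 and 2.04 in WT 2c embryos. The groups overlapped in a single 2c embryo at 0, and the other 10 of 11 lay above the highest oocyte. The log2 fold change was 4.43 ± 0.54 (SE, adjusted p = 2.47e-11, edgeR) on the spike-in scale and 5.85 with TMM scaling. At 8c the lowest, median and highest were 1.11, 2.07 and 9.50 counts per 1000 spike-in counts, a further rise. Yars overlaps C77080 on the other strand, and whether the counting used strand is not given in the sources used here, so reads of the 2 genes cannot be told apart. Yars also starts within 1000 bases of S100pbp on the other strand.

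Ears2, the mitochondrial glutamyl-tRNA synthetase, rose only for a time in WT. Its level ran from 0 to 0.173 counts per 1000 spike-in counts in WT oocytes, from 0.094 to 2.16 (median 0.556) in WT 2c embryos and from 0 to 0.661 (median 0.091) in WT 8c embryos. The 2c embryos stood highest: 10 of 11 lay above every WT oocyte, and 8 of 15 8c embryos lay below the lowest 2c embryo, with overlap in both steps. The log2 fold changes were 4.16 ± 0.66 (SE, adjusted p = 8.11e-08, edgeR) from MII to 2c and -1.97 ± 0.59 (adjusted p = 0.00369) from 2c to 8c. The second of these did not pass in plate A alone (-1.49, adjusted p = 0.236, edgeR). In matPlag1KO the step from 2c to 8c was not called (-1.05 ± 0.65, SE, adjusted p = 0.174, edgeR). Ears2 starts within 1000 bases of Ubfd1 on the other strand.

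Cars2, the mitochondrial cysteinyl-tRNA synthetase, was at 0 in 14 of 16 WT oocytes and present in 11 of 11 WT 2c embryos. It ran from 0 to 0.799 counts per 1000 spike-in counts at MII and from 0.091 to 1.22 (median 0.461) at 2c, and the log2 fold change was 2.84 ± 0.65 (SE, adjusted p = 0.000111, edgeR). The ranges overlapped through 2 oocytes, and 2 of 11 embryos lay above the highest oocyte. Aimp2, a scaffold protein on which the complex is assembled, had 0.167, 0.683 and 6.49 (lowest, median, highest) counts per 1000 spike-in counts in WT oocytes and 1.51, 2.98 and 4.32 in WT 2c embryos. Every 2c embryo lay above the oocytes' median, but the highest oocyte lay above every embryo. Its log2 fold change of 1.07 ± 0.46 (SE, adjusted p = 0.0332, edgeR) was not called with all libraries kept (0.98, adjusted p = 0.062) or in plate A alone (0.32, adjusted p = 0.721), and was 2.78 with TMM scaling. Aimp2 overlaps Eif2ak1 on the other strand and starts within 1000 bases of Pms2, also on the other strand.

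The genes that fell furthest included members of each class. Lars, the cytosolic leucyl-tRNA synthetase, had 0.712, 2.58 and 12.8 counts per 1000 spike-in counts (lowest, median, highest) in WT oocytes and 0, 0.111 and 0.479 in WT 2c embryos. The 2 groups did not overlap, and the log2 fold change was -4.48 ± 0.53 (SE, adjusted p = 1.01e-11, edgeR). Fars2, the mitochondrial phenylalanyl-tRNA synthetase, likewise did not overlap. It had 2.91, 5.45 and 14.8 counts per 1000 spike-in counts in WT oocytes and 0, 0.323 and 0.707 in WT 2c embryos, with a log2 fold change of -3.97 ± 0.42 (SE, adjusted p = 1.3e-13, edgeR). It remained low at 8c, with 0.091, 0.294 and 1.32 counts per 1000 spike-in counts and no call from 2c to 8c in WT.

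Farsa and Farsb encode the subunits of the cytosolic phenylalanyl enzyme, and both fell. Farsa had a median of 2.14 counts per 1000 spike-in counts in WT oocytes and of 0 in WT 2c embryos, where 7 of 11 had no count, and its log2 fold change was -4.43 ± 0.61 (SE, adjusted p = 1.57e-09, edgeR). The highest 2c embryo (0.752) lay above 2 of 16 oocytes. Aimp1, the scaffold protein that is also released as a cytokine, had a median of 0.633 in WT oocytes and of 0 in WT 2c embryos, where 4 of 11 had a count. Its log2 fold change was -4.64 ± 0.65 (SE, adjusted p = 2.17e-09, edgeR), and 2 oocytes without a count kept the ranges in overlap. Aimp1 starts within 1000 bases of Tbck on the other strand. Cars, the cytosolic cysteinyl enzyme, went from 249 counts over the WT oocytes to 2 counts over the WT 2c embryos, 80.6-fold lower with a 95% counting interval from 22.1 to 669. Pars2, the mitochondrial prolyl enzyme, went from 54 counts to 0, at least 11.6-fold lower when the 0 is replaced by 3 counts for the whole group. Such intervals and bounds cover counting error only.

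**Figure D3:**
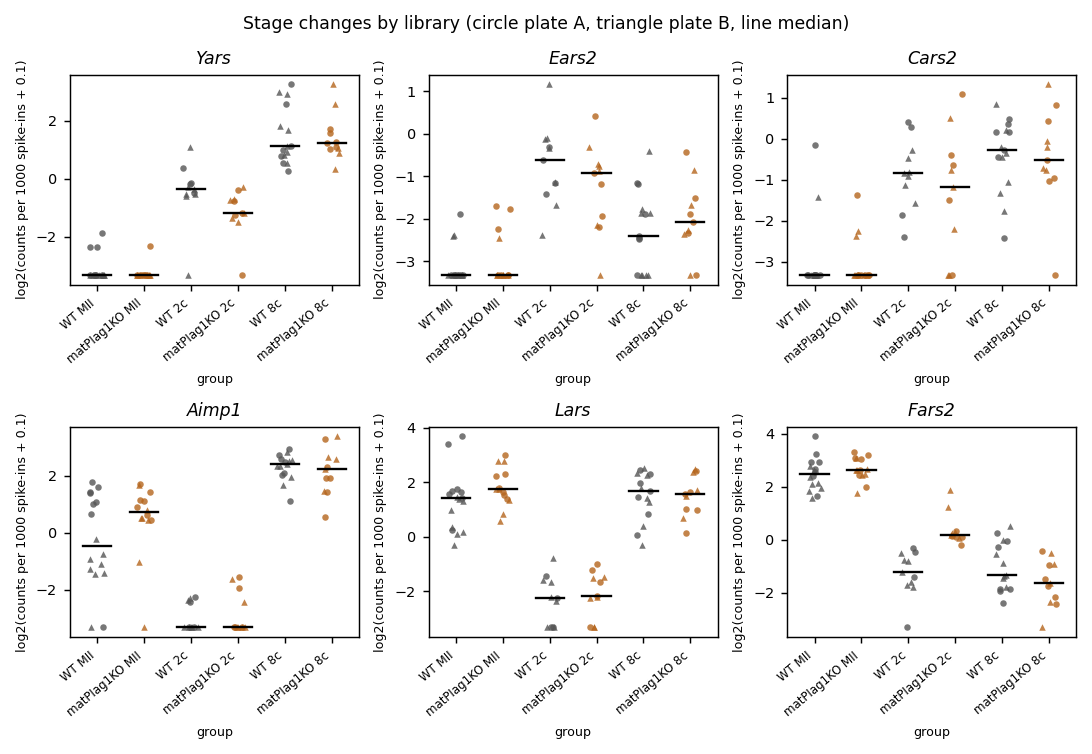
Level of 6 genes in each library as log2 of counts per 1000 spike-in counts plus 0.1, by group (grey WT, orange matPlag1KO; circles plate A, triangles plate B; the line is the median). Yars, Ears2 and Cars2 sit at the floor in most oocytes and above it at 2c, and Aimp1, Lars and Fars2 drop from MII to 2c in both genotypes.

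For 5 amino acids the cytosolic and the mitochondrial enzyme were called in opposite directions between MII and 2c in WT. For cysteine, glutamate, histidine and methionine the cytosolic gene fell and the mitochondrial gene rose. The log2 fold changes of the cytosolic genes were -1.80 ± 0.42 for Eprs (which charges both glutamate and proline), -1.63 ± 0.47 for Hars and -2.17 ± 0.79 for Mars (SE), with adjusted p of 0.000153, 0.00169 and 0.0133 in edgeR. With TMM scaling these were -0.13, -0.03 and -0.62, and none was called. Mars2 rose by 2.52 ± 0.76 (SE, adjusted p = 0.00269, edgeR), from 4 counts over 16 WT oocytes to 20 counts over 11 2c embryos. Hars2 had 3 and 14 counts, a ratio of 7.21 on the spike-in scale with a 95% counting interval from 2.01 to 39.1, and its log2 fold change turned to -0.37 in plate A alone. Hars and Hars2 start close together on opposite strands, so reads near their starts could be split between them. Mars overlaps Ddit3 on the other strand. Tyrosine went the other way. Yars rose while Yars2 went from 7 counts to 0, at least 1.51-fold lower, and Yars2 was not called with TMM scaling. Cars, Cars2, Ears2 and Yars were called in each plate alone. Mars (adjusted p = 0.0668 in plate A and 0.796 in plate B, edgeR) and Yars2 (0.272 and 0.0538) were called in neither. Mars2 was not called in plate A (0.341), nor Hars (0.700) and Eprs (0.0715) in plate B. In matPlag1KO neither Mars (0.186) nor Yars2 (0.176) was called.

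The 8 cytosolic enzymes of the multi-synthetase complex and the other 12 are described side by side, with no test of the difference, since this grouping was made after the values were seen. The complex's median log2 fold change from MII to 2c in WT was -1.68 on the spike-in scale, near the median of all genes, and it turned to 0.09 with TMM scaling, with 7 of 8 and 1 of 8 genes falling. The other 12 had a median of -3.50 and, with TMM scaling, -1.96, with 10 and 7 genes falling. Among all genes 51.3% fell on the spike-in scale, and 3814 of 16511 fell with TMM scaling. Summed over genes, the 8 enzymes had a median of 506 CPM per WT oocyte and 700 CPM per WT 2c embryo, and the other 12 had 842 and 290 CPM. In matPlag1KO the 8 enzymes had 595 and 396 CPM, lower and not higher at 2c, and the other 12 had 784 and 329 CPM.

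From 2c to 8c in WT, 30 of the 39 genes rose and 2 fell, where 31.9% of all genes rose and 16.2% fell. The median log2 fold change was 2.19 (2.14 with bounds) against 0.53 for all genes on the spike-in scale, and 34 of the 39 lay above the median of all genes. With TMM scaling 21 rose and 3 fell, with a median of 1.32 for the set and -0.12 for all genes. Over all 16511 genes 3475 rose and 4767 fell with TMM scaling. Among cytosolic enzymes 19 of 20 rose, with a median of 2.35 (1.45 with TMM scaling). Iars, the isoleucyl enzyme, was the exception, with a log2 fold change of -0.07. Of the mitochondrial genes 8 rose and 2 fell, with a median of 1.89 (1.63 with bounds, 1.00 with TMM scaling), and all 3 scaffold genes rose.

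Among genes with over 3 counts in both groups Aimp1 rose furthest, although most WT 2c embryos had no count of it. It ran from 0 to 0.111 counts per 1000 spike-in counts in WT 2c embryos and from 2.07 to 7.59 (median 5.29) in WT 8c embryos, without overlap. The log2 fold change was 6.68 ± 0.67 (SE, adjusted p = 1.78e-14, edgeR). Wars2, the mitochondrial tryptophanyl enzyme, ran from 0 to 0.479 (median 0.111) at 2c and from 0.960 to 10.5 (median 2.73) at 8c in WT, again without overlap. Its log2 fold change was 4.93 ± 0.63 (SE, adjusted p = 2.4e-10, edgeR). Lars rose by 4.44 ± 0.53 (SE, adjusted p = 2.14e-11, edgeR), to 0.713, 3.16 and 5.70 counts per 1000 spike-in counts (lowest, median, highest) at 8c, above every WT 2c embryo, and Farsa rose by 4.37 ± 0.61 (SE, adjusted p = 3.88e-09). Vars, the valyl enzyme, had 0 counts in the WT 2c embryos and 72 counts in 15 of 15 8c embryos, at least 14.5-fold higher. Aars2 (0 and 41 counts), Pars2 (0 and 32) and Yars2 (0 and 15) were at least 8.27-fold, 6.45-fold and 3.02-fold higher.

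Ears2 and Lars2 fell from 2c to 8c in WT. Lars2, the mitochondrial leucyl-tRNA synthetase, varied widely between embryos of the same group. Its lowest, median and highest levels were 289, 1408 and 21965 CPM in WT 2c embryos and 324, 784 and 2259 CPM in WT 8c embryos. On the spike-in scale the medians were 24.2 and 29.2 counts per 1000 spike-in counts, and 2 of 11 2c embryos lay above every 8c embryo. The fitted log2 fold change of -1.33 ± 0.55 (SE, adjusted p = 0.0395, edgeR) was not called in plate A alone (-1.90, adjusted p = 0.0652) or plate B alone (-0.87, adjusted p = 0.248), nor with all libraries kept, and was larger with TMM scaling (-2.25, adjusted p = 0.000222). Its sign on the spike-in scale is opposite to that of the medians. Its partner Lars rose, as did Eprs, the partner of Ears2, by 1.54 ± 0.42 (SE, adjusted p = 0.00161), although Eprs was not called with TMM scaling (0.58, adjusted p = 0.111, edgeR).

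Taking both WT steps, 23 of the 39 genes fell and then rose. Of all genes 51.3% fell in the first step and 31.9% rose in the second, and the share with both calls was not counted. The 23 comprised 16 cytosolic genes, the mitochondrial Aars2, Pars2, Rars2, Wars2 and Yars2, and the scaffold genes Aimp1 and Eef1e1. The falls of Aars2 (6 counts to 0) and Yars2 (7 to 0) lay near the floor, at least 1.29-fold and 1.51-fold. Iars, Fars2 and Vars2 fell without a later call, and Rars, Vars, Iars2, Nars2 and Sars2 rose at 8c without an earlier call. Yars and Aimp2 rose in both steps. Ears2 rose and fell, Cars2, Hars2 and Mars2 rose at 2c without a later call, Lars2 fell only at 8c, and Tars2 had no call in either step. Of the 4 genes whose promoter windows hold TTGCATCA, Aars (log2 fold changes -1.62 and 1.57) and Tars (-3.27 and 4.04) fell and rose, Iars (-1.77 and -0.07) fell, and Yars (4.43 and 2.15) rose in both steps.

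The same steps in matPlag1KO gave similar counts. From MII to 2c, 25 of the 39 genes fell and 4 rose, where 50.3% of all genes fell and 13.5% rose, with a median of -2.30 against -1.42 for all genes (-0.63 and 0.14 with TMM scaling). From 2c to 8c, 28 rose and 1 fell, where 29.1% rose and 19.5% fell, with a median of 2.12 against 0.30 (1.60 and -0.31 with TMM scaling). The genes that fell from MII to 2c in both genotypes numbered 22, which is 84.6% of the 26 in WT and 88.0% of the 25 in matPlag1KO. The genes that rose from 2c to 8c in both numbered 27, or 90.0% of the 30 in WT and 96.4% of the 28 in matPlag1KO. The matching overlaps over all genes were not counted. Cars2, Ears2, Hars2 and Yars rose at 2c in both genotypes, and Yars had 1 count in 14 matPlag1KO oocytes and 43 counts in 11 2c embryos, a ratio of 56.3 with a 95% counting interval from 9.57 to 2274.

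Some genes differed in their course. Fars2 fell by 2.26 ± 0.38 on the log2 scale from MII to 2c in matPlag1KO (SE, adjusted p = 3.12e-07, edgeR), and from 2c to 8c it fell again by 2.25 ± 0.43 (adjusted p = 6.85e-06), the only one of the 39 called lower in that step. Aimp2 fell by 1.24 ± 0.49 from MII to 2c in matPlag1KO (SE, adjusted p = 0.0219, edgeR), while it rose in WT, but in matPlag1KO the sign turned with TMM scaling (0.91, adjusted p = 0.0372) and in plate B alone (0.17, adjusted p = 0.818). Mars2, which rose in WT, had a log2 fold change of -0.57 ± 0.77 in matPlag1KO (SE, adjusted p = 0.529, edgeR). Whether the genotypes differ at a stage is given next, on CPM with TMM scaling.

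**Figure D4:**
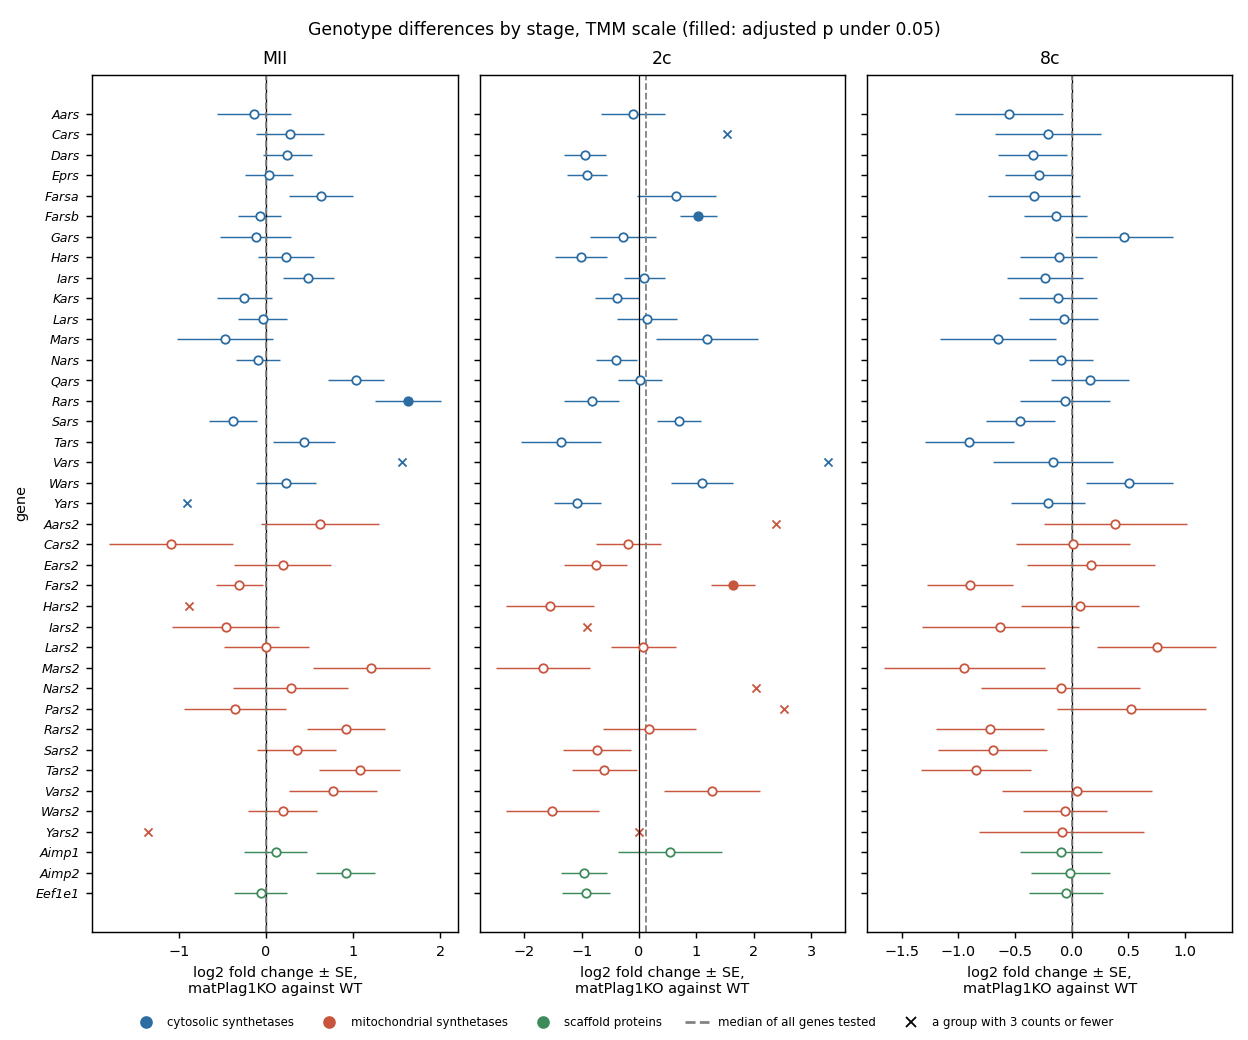
Log2 fold change ± SE of matPlag1KO against WT for each gene at MII, 2c and 8c on the TMM scale, with a separate axis range per stage. Filled points passed an adjusted p of 0.05 (Rars at MII, Fars2 and Farsb at 2c), crosses mark genes with 3 counts or fewer in a group, and the dashed line is the median of all genes.

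In MII oocytes 1 of the 39 genes was higher in matPlag1KO and 0 were lower (edgeR quasi-likelihood test), where 0.309% of all genes were higher and 0.472% lower, and 7 of the 39 had an unadjusted p under 0.05, which 10.2% of all genes had. DESeq2 also called 1, where it called 0.23% of all genes higher and 0.26% lower. With a replicate block by well and plate 3 were called higher, Iars (0.57, adjusted p = 0.0169, edgeR), Qars and Rars, and over all genes 639 were then higher and 153 lower of 12978, against 51 and 78 of 16511. The labels do not say what same-numbered wells of the plates share. The median log2 fold change was 0.19 for the set and 0.00 for all genes. The called gene was Rars, the cytosolic arginyl-tRNA synthetase of the complex. Its lowest, median and highest levels were 0, 31.3 and 63.1 CPM in WT oocytes and 6.35, 52.3 and 464 CPM in matPlag1KO oocytes. The groups overlapped, with 5 of 14 matPlag1KO oocytes above every WT oocyte. The log2 fold change was 1.63 ± 0.38 (SE, adjusted p = 0.00998, edgeR), and the call rested on the highest oocyte: without matPlag1KO MII replicate 5 it was 1.11 (adjusted p = 0.144). Within plates it was 1.87 (adjusted p = 0.0319, edgeR) in plate A and 1.12 (adjusted p = 0.211) in plate B.

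Qars, the glutaminyl enzyme of the same complex, had 34.0, 78.8 and 543 CPM (lowest, median, highest) in WT oocytes and 58.0, 135 and 1006 CPM in matPlag1KO oocytes, with overlapping ranges. Its log2 fold change of 1.03 ± 0.32 (SE) did not pass with TMM factors (adjusted p = 0.113, edgeR) but passed with spike-in totals (1.56, adjusted p = 0.0264) and with the block (0.75, adjusted p = 0.000293). It was chosen for mention after its values were seen. The summed oocyte and cumulus markers and the gene counts per spike-in count given above were also higher in matPlag1KO oocytes at the median, and their part in these differences was not tested.

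At 2c, 2 of the 39 genes were higher in matPlag1KO embryos and 0 were lower, where 2.3% of all genes were higher and 2.62% lower. The median log2 fold change was -0.11 for the set and 0.12 for all genes, and 24 of the 39 lay below the latter. Another scaling moved the balance over all genes: 379 were higher and 433 lower with TMM factors, 721 and 273 with median-ratio size factors (median 0.31), and 191 and 94 with spike-in totals (median 0.28). An unadjusted p under 0.05 was reached by 12 of the 39 and by 20.5% of all genes. DESeq2 called 4 of the 39, where it called 2.4% of all genes higher and 3.75% lower: Fars2 and Farsb higher and Dars (-0.98, adjusted p = 0.045) and Eprs (-0.92, adjusted p = 0.042) lower.

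Fars2, the mitochondrial phenylalanyl enzyme, had 0, 17.9 and 40.2 CPM (lowest, median, highest) in WT 2c embryos and 36.5, 54.5 and 131 CPM in matPlag1KO 2c embryos. The groups nearly separated: 9 of 11 matPlag1KO embryos lay above every WT embryo, and a single WT embryo lay above the lowest matPlag1KO embryo. The log2 fold change was 1.64 ± 0.38 (SE, adjusted p = 0.00494, edgeR), and it was called with each of the 22 libraries left out in turn (highest adjusted p = 0.0176) and under median-ratio and spike-in scaling. Within plates it was 1.94 (adjusted p = 0.015, edgeR) in plate B and 1.10 (adjusted p = 0.606) in plate A, which holds 4 WT and 5 matPlag1KO 2c embryos. Fars2 starts within 1000 bases of Lyrm4 on the other strand. The oocyte markers, which fall from MII to 2c as Fars2 does, were also higher in these embryos at the median (6785 against 4127 CPM summed), as were the cumulus markers (96.7 against 30.9 CPM summed), and their part in the differences at 2c was not tested.

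Farsb, a subunit of the cytosolic phenylalanyl enzyme, had 33.5, 46.9 and 97.7 CPM (lowest, median, highest) in WT 2c embryos and 9.24, 81.2 and 461 CPM in matPlag1KO 2c embryos. The wider matPlag1KO group reached both above and below WT, with 3 embryos above the highest and 2 below the lowest WT embryo. The log2 fold change was 1.03 ± 0.32 (SE, adjusted p = 0.0411, edgeR), and the call was lost in 10 of 22 fits that left out a library. Without matPlag1KO 2c replicate 12 it was 0.53 (adjusted p = 0.316, edgeR), and within plates it was 0.56 (adjusted p = 0.752) in plate A and 1.28 (adjusted p = 0.0662) in plate B. Farsa, the other subunit, had a log2 fold change of 0.65 ± 0.70 (SE, adjusted p = 0.626, edgeR). Farsb overlaps Sgpp2 on the other strand.

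The lowest log2 fold changes at 2c belonged to mitochondrial genes with few counts and did not pass the test. They were -1.68 ± 0.81 for Mars2 (adjusted p = 0.22, edgeR), -1.55 ± 0.76 for Hars2 (0.226) and -1.51 ± 0.81 for Wars2 (0.276). At the other end, Vars had 0 counts in WT and 6 counts in matPlag1KO 2c embryos, at least 1.71-fold higher, and was not called (adjusted p = 0.0806, edgeR). Pars2 and Aars2 had 0 and 3 counts each, too few for a fold, and a difference in them was not detectable at this depth.

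**Figure D5:**
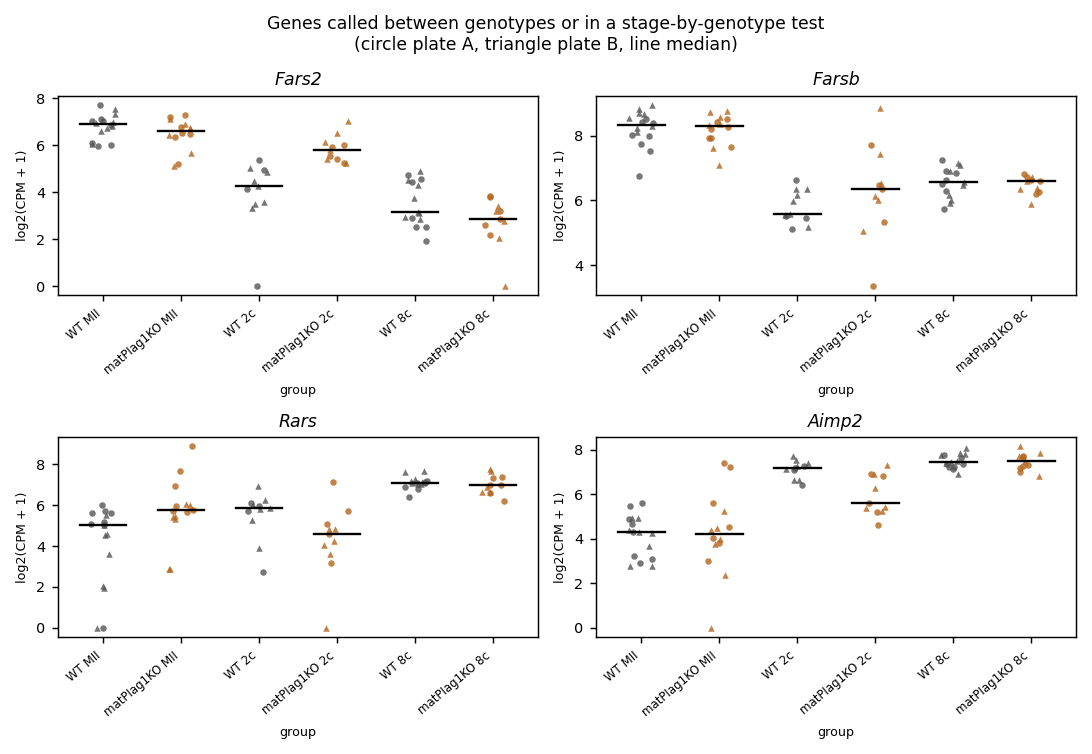
Level of Fars2, Farsb, Rars and Aimp2 in each library as log2 of CPM plus 1 (grey WT, orange matPlag1KO; circles plate A, triangles plate B; the line is the median). At 2c the matPlag1KO embryos sit mostly above WT for Fars2 and below WT for Aimp2, and 1 matPlag1KO oocyte stands highest for Rars.

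At 8c none of the 39 genes was called between the genotypes in edgeR, where 1.21% of all genes were higher and 0.527% lower in matPlag1KO. DESeq2 gave 0 as well, where it called 1.31% of all genes higher and 0.727% lower. An unadjusted p under 0.05 in edgeR was reached by 2 of the 39, Fars2 and Tars, and by 14.3% of all genes. The log2 fold changes ran from -0.95 for Mars2 to 0.75 for Lars2. Their median was -0.11 against 0.00 for all genes, with 29 of the 39 below 0. The summed 8c markers given above were lower in matPlag1KO at the median, and their part in this was not tested.

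A test of the difference between stages was made for the genotype effect. Against MII, the effect at 2c differed for 3 of the 39 genes, where 3.31% of all genes were called. For Fars2 it was higher at 2c by 1.94 ± 0.46 on the log2 scale (SE, adjusted p = 0.00786, edgeR), with -0.30 at MII and 1.64 at 2c. It was not called with spike-in totals (1.70, adjusted p = 0.0577). For Rars it was lower by 2.46 ± 0.62 (log2 difference -2.46, adjusted p = 0.012, edgeR), with 1.63 at MII and -0.83 at 2c. For Aimp2 the log2 difference was -1.87 ± 0.53 (SE, adjusted p = 0.0295, edgeR), with 0.91 at MII and -0.96 at 2c, neither of which was called by itself.

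Aimp2 had 86.2, 147 and 210 CPM (lowest, median, highest) in WT 2c embryos and 23.9, 48.7 and 162 CPM in matPlag1KO 2c embryos, and 5.81, 18.9 and 48.1 CPM in WT and 0, 17.8 and 168 CPM in matPlag1KO oocytes. The medians lay apart at 2c and close together at MII, where the matPlag1KO oocytes spread more widely. The call was lost without matPlag1KO MII replicate 1 (-1.44, adjusted p = 0.0913, edgeR) or replicate 7 (-1.51, adjusted p = 0.0807), and with median-ratio scaling (-1.65, adjusted p = 0.0559). Against 8c, the genotype effect at 2c differed for 1 of the 39 genes, where 2.3% of all genes were called. Fars2 was higher at 2c by 2.54 ± 0.54 on the log2 scale (SE, adjusted p = 0.0048, edgeR), with an effect of -0.90 ± 0.38 at 8c.

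Genes that act beside the synthetases were counted in the same way. Of 7 genes that bring charged tRNA to the ribosome (elongation factors of the cytosol and mitochondria), 5 fell from MII to 2c in WT. Of all genes 51.3% fell. The median log2 fold change was -1.66 for the 7 genes and -1.46 for all genes. From 2c to 8c 6 rose, where 31.9% of all genes rose, with a median of 3.04 against 0.53 for all genes. Eefsec (-4.49 ± 0.62, SE), the factor for selenocysteine, and the mitochondrial Tsfm (-3.73 ± 0.44) fell furthest, with adjusted p of 1.4e-09 and 8.68e-12 in edgeR. Tufm (6.11 ± 0.76), the mitochondrial elongation factor Tu, and Eef1g (4.94 ± 0.55), a subunit of eEF1, rose furthest, with adjusted p of 9.48e-11 and 1.2e-12. In matPlag1KO 6 fell (Eefsec -4.71, Tsfm -4.03) and 6 rose (Tufm 5.50, Eef1g 5.02). Of all genes in matPlag1KO 50.3% fell from MII to 2c and 29.1% rose from 2c to 8c. Between the genotypes none was called at a stage. The genotype effect on Eef1d differed between 2c and MII by -1.64 ± 0.47 (log2, SE, adjusted p = 0.0338, edgeR).

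Of 19 other genes of tRNA charging, processing and editing, 2 were called higher and 8 lower in WT 2c embryos than in oocytes. Of all genes 14.1% were higher and 51.3% lower. The median was -1.30, against -1.46 for all genes. From 2c to 8c 14 rose, where 31.9% of all genes rose, with a median of 2.37 (2.15 with bounds) against 0.53. Mtfmt, which formylates the mitochondrial initiator tRNA, went from 413 counts over the WT oocytes to 3 over the WT 2c embryos. Elac2, which trims the 3′ end of tRNA precursors, had a log2 fold change of -4.02 ± 0.69 (SE, adjusted p = 4.58e-07, edgeR). Xpot, the exporter of tRNA from the nucleus, rose from 3 to 26 counts, a ratio of 13.4 with a 95% counting interval from 4.10 to 69.1. Aarsd1, an alanyl-tRNA editing protein, had 2 counts in WT 2c embryos, 19 in matPlag1KO 2c embryos and 425 in WT 8c embryos. It was the 1 gene of the list called between genotypes, at 2c, where 2.3% of all genes were called higher. The ratio was 8.12 with a 95% counting interval from 1.96 to 71.9. Pstk went from 3 to 92 counts between 2c and 8c in WT. In matPlag1KO 1 rose (Xpot 1.71) and 11 fell (Sepsecs -4.52, Mtfmt -4.21) from MII to 2c, and 13 rose (Ptrhd1 3.89, Aarsd1 3.74) from 2c to 8c. Of all genes 13.5% rose and 50.3% fell in the first of these steps, and 29.1% rose in the second.

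Genes of the amino acid response, the ATF4 program that also covers amino acid synthesis, were counted too, with 21 of 22 tested. Between MII and 2c, 6 rose and 10 fell in WT, where 14.1% of all genes rose and 51.3% fell. The median was -0.77 and turned to 0.92 with TMM scaling. From 2c to 8c 6 rose and 4 fell, where 31.9% of all genes rose and 16.2% fell. The median was 0.36 and turned to -0.57 with TMM scaling. Psat1, an enzyme of serine synthesis, rose by 6.06 ± 0.52 (log2, SE, adjusted p = 1.24e-17, edgeR) from MII to 2c, and Trib3 went from 3 to 82 counts. Eif2ak4, the kinase that senses uncharged tRNA, fell by 3.34 ± 0.65 (log2, SE, adjusted p = 7.54e-06, edgeR), and Chac1 went from 41 to 2 counts. From 2c to 8c Phgdh (4.52 ± 0.59) and Asns (2 to 87 counts) rose, and Ppp1r15a (-2.32 ± 0.39) and Mthfd2 (-2.12 ± 0.34) fell. In matPlag1KO, Trib3 (0 to 137 counts) and Nupr1 (0 to 63) rose while Asns (22 to 1) and Eif2ak4 (-2.86) fell from MII to 2c, and Asns (1 to 47 counts) and Phgdh (3.71) rose while Ddit3 (-3.26) and Trib3 (-3.20) fell from 2c to 8c. Between genotypes, Psat1 (-1.37 ± 0.37, adjusted p = 0.0205, edgeR) and Cth (-1.08 ± 0.28, adjusted p = 0.0128) were lower at 2c in matPlag1KO, and Shmt2 (-1.56 ± 0.38, adjusted p = 0.0142) was lower at 8c. The genotype effect on Shmt2 differed between 2c and 8c by 2.26 ± 0.53 (log2, SE, adjusted p = 0.0101, edgeR).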

How the data were processed

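Single MII oocytes, 2c and 8c embryos of both genotypes were sequenced from transcript 5′ ends in 2 library pools, here plates A and B. The authors joined reads by molecular identifier, aligned them to mm9 with TopHat, counted them per gene with HOMER on UCSC genes and deposited raw counts of genes and of 92 spike-in RNAs in 90 libraries; versions and the use of strand are not given in the sources used here. Libraries with a median CPM under 1 were left out (12), which kept 78, and a gene was tested where 5 or more of these reached 1 CPM (16511 genes). The 6 groups were fitted together in edgeR 4.0.16 (R 4.3.3), with the quasi-likelihood test and a Benjamini-Hochberg adjusted p under 0.05. Genotypes were compared with TMM factors, stages with spike-in totals as library sizes. DESeq2 1.42.0, other scalings, filters, plates, groups, a replicate block and leaving out each library were alternatives. No library was a copy of another (lowest chi-square per degree of freedom 3.54). Kept libraries held 92475 to 2502421 gene counts, so a gene with a few counts per group carries wide counting intervals (95%) or a bound from 3 counts. CPM in the text are on TMM library sizes, except sums over marker or gene lists, which are on gene totals.

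The gene set, its subgroups and the other lists were chosen with earlier results of these data known. Genes named with values are those called between genotypes or in an interaction, at 2c also the 3 highest and 3 lowest log2 fold changes, in each WT step the 5 largest rises and falls whose group mean reached 10 CPM, pairs of enzymes called in opposite directions, and in the other lists the 2 highest and 2 lowest among called genes, of which 1 is not reported here. The steps were tested on simulated counts, where the direction and size of known changes were recovered, many smaller ones were missed, and somewhat more unchanged genes than the nominal rate were called between stages. Promoter windows are from RefSeq, and no sequence was read from the libraries. Mm9 positions served to find overlapping genes.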

Additional observations from a re-analysis of the deposited data

Results flagged for a closer look

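In 4 cases the genotype effect differed between 2 stages in a test of the difference itself (edgeR quasi-likelihood test, Benjamini-Hochberg adjusted over all genes). At 2c against MII these were Fars2 (log2 difference 1.94, adjusted p = 0.00786), Rars (-2.46, adjusted p = 0.012) and Aimp2 (-1.87, adjusted p = 0.0295). At 2c against 8c it was Fars2 (2.54, adjusted p = 0.0048). The 2 tests on Fars2 share the 2c libraries. Leaving out each library in turn kept the calls of Fars2 (highest adjusted p 0.021 against MII over 52 fits and 0.009 against 8c over 48) and of Rars (0.040), and ended that of Aimp2 without matPlag1KO MII replicate 1 or 7.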

How the results depend on the processing

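Of 285 values of the named genes under the alternatives, in the genotype comparisons, their differences between stages and the WT steps, 254 kept their direction and their side of the threshold, 29 kept the direction but lost the call, and 2 turned: Hars2 in plate A alone, at 0.61 (log2) between genotypes at 2c and -0.37 from MII to 2c in WT. With a library left out, 13 of 409 values lost the call and 0 turned. The matPlag1KO steps are not in this tally, and Aimp2 turned there, as given above. An alternative with no count in either group gave no value.

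Members called between genotypes at MII, 1 in the report, were 0 with only the 2 groups in the fit, 0 in plate B alone, 2 with spike-in totals (Qars and Rars) and 0 to 2 with a library left out. With a replicate block by well, plate included, they were 3 (Iars 0.57, adjusted p = 0.0169; Qars 0.75, adjusted p = 0.000293; Rars 1.35, adjusted p = 2.55e-06, edgeR). Among all genes at MII, 19 were higher and 27 lower of 13070 with only the 2 groups in the fit. These were 367 and 96 of 15161 in plate B alone and 97 and 40 of 16511 with spike-in totals. Wells of the 2 plates hold opposite genotypes at MII. Over 8418 genes, 12 of 14 well pairs had a correlation of deviations from the group means over 0.1 (lowest -0.06), and 24 of 28 libraries correlated best with their own well, a hint from the data and not from the labels. With deviations from group-and-plate means it was 14 of 14 (lowest 0.15). At 2c only 2 pairs and at 8c 0 held both genotypes, so no block was fitted there.

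At 2c the members called, 2 in the report, were 4 with DESeq2, 1 with all libraries kept, 1 with no filter on low counts, 1 with only the 2 groups in the fit, 0 in plate A alone and 1 to 2 with a library left out. At 8c they were 0 to 0. Among all genes at 2c, 459 were higher and 309 lower of 16578 with all libraries kept. With no filter these were 286 and 418 of 19613, and with only the 2 groups 402 and 361 of 12823. In plate A alone 0 of 15073 were higher and 0 lower. The genotype difference at 2c was called for 2 to 4 members against MII and 1 to 1 against 8c with a library left out, and for 2 against 8c with DESeq2 (Fars2 and Farsb, where 1 is in the report). DESeq2 called 1.68% of all genes higher and 2.22% lower in that test against 8c. Calls from MII to 2c in WT, 32 in the report, were 19 with TMM scaling and 21 in plate B alone. From 2c to 8c those in plate A alone were 21 in WT (32 in the report) and 16 in matPlag1KO (29 in the report). Among all genes, 4540 rose and 3814 fell of 16511 from MII to 2c in WT with TMM scaling. In plate B alone 2418 rose and 4543 fell of 15161. From 2c to 8c in plate A alone, 2771 rose and 1255 fell of 15073 in WT. In matPlag1KO 2556 rose and 1750 fell. The cause of these differences was not tested, except that single plates hold fewer libraries. Depth limits the genes with a few counts per group, above all Vars, Aars2, Pars2, Yars2, Hars2, Iars2 and Nars2.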
